A study of Mus musculus with 43 samples.

Results

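The genes of the major histocompatibility complex (MHC) class II antigen presentation pathway were followed through 43 poly-A RNA-seq libraries of mouse back skin. They were chosen by name, as the rows H2-Aa, H2-Ab1, H2-Eb1, H2-DMa, H2-DMb1, Cd74 and Ciita of a table of 23256 genes, and all 7 were among the 19170 genes that passed the filter on low values. All mice were females of 10 to 13 weeks. They belonged to 3 strains: the lupus-prone NZM2328 (labelled NZM), iNZM, and WT, and the labels spell out neither of the last names. Each strain was left without ultraviolet B (UVB), given 300 mJ/cm2 of UVB in 1 exposure (acute), or given 100 mJ/cm2 of UVB daily for 5 days (chronic), and the skin was sampled 24 hours after the last dose. There were 5 libraries in every group except unexposed iNZM and unexposed WT, which had 4 each. In this field iNZM is a name for NZM2328 mice that lack the type I interferon receptor. Ifnar1, which encodes a chain of that receptor, ranged from 304 to 579 normalized reads in the 14 iNZM libraries, below the 716 to 1148 of the 15 NZM libraries and the 758 to 1378 of the 14 WT libraries. A normalized read is a deposited read count divided by the size factor of its library.

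MHC class II molecules are cell-surface dimers of an α and a β chain that display peptides from engulfed proteins to CD4+ T cells. The chains assemble on the invariant chain, Cd74, which fills and protects the peptide groove until proteases in the endosome degrade it, and the H2-DM dimer then exchanges its last fragment for antigenic peptides. Ciita, the class II transactivator, binds no DNA itself but is recruited to a set of promoter elements (the W/S, X and Y boxes) held by RFX, CREB and NF-Y proteins. In skin, class II is made chiefly by Langerhans cells of the epidermis, dermal dendritic cells and macrophages, and interferon gamma can induce it in other cells.

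The proximal promoters of the α chain gene H2-Aa and the β chain gene H2-Eb1 are shown because class II promoters are where Ciita is recruited, and the pair differs in which of its known elements can be found by their letters. Each sequence is the 130 bases before the RefSeq transcription start (GRCm38.p6), read 5′ to 3′ on the strand of the gene. H2-Aa is at chr17:34287824-34287953 on the minus strand and H2-Eb1 at chr17:34305737-34305866 on the plus strand. Capitals mark matches to TGATTGG (the Y box), AACNGATG (the core of the X box) and TGACGTCA (a cyclic AMP response element).
H2-Aa: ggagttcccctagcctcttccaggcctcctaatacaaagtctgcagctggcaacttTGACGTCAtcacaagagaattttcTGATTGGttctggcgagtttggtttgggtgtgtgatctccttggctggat
H2-Eb1: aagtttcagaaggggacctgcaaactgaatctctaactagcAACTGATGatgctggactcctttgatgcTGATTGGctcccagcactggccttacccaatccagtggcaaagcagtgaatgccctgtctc
The Y box of H2-Eb1 lay 61 to 55 bases before the start, with 20 bases between it and the X box core. H2-Aa held the Y box 50 to 44 bases before the start and the cyclic AMP element 74 to 67 bases before it, with no match to the X box core as spelled. H2-DMb1 had both boxes, 21 bases apart, and so did its neighbour H2-DMb2. Neither RefSeq start of H2-DMa had a match to any of the 3 motifs. The bases just before them, chr17:34122702-34122831 and chr17:34125388-34125517, lie inside the annotated span of that gene. Other possible starts of H2-DMa were not searched, so whether it has these boxes elsewhere was not tested. On both strands of the 250 bases before the start, 7.23% of 32851 promoter entries held the Y box, 1.98% the X box core, 1.55% the cyclic AMP element, and 0.146% both boxes. RefSeq entries matched 4 of the 7 genes, and a match is a description of the letters and no measured binding.

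In the GENCODE annotation of GRCm38, 5 of the genes lie together in the H2 region: H2-DMa at chr17:34119541-34139101, H2-DMb1 at chr17:34153072-34160230, H2-Ab1 at chr17:34257689-34269419 and H2-Eb1 at chr17:34305867-34316674 on the plus strand, and H2-Aa at chr17:34282744-34287823 on the minus strand. Ciita is at chr16:10480059-10528418, and Cd74 is on another chromosome. Exons of H2-DMa overlap those of Brd2 and exons of Ciita overlap those of Dexi, on opposite strands in both cases. Whether the counting used strand is not given in the sources used here, so reads of such partners cannot be told apart. Of the stretches of 50 bases in the H2-DMb1 transcripts, 27.2% also occur in H2-DMb2, and of those of 150 bases 5.74% do, so reads could be split between these paralogs.

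The libraries held between 18493566 and 37756660 reads in genes, with a median of 24442363. The labels do not say that each library came from a separate mouse, so the p-values measure the spread between these libraries, which may be partly technical. A hair follicle score, the mean of log2(normalized reads + 1) over 28 hair follicle genes after centring each gene, set 9 libraries apart: they scored 5.73 or more and the other 34 scored 2.61 or less. These were 1 acute and 3 chronic NZM libraries and 2 acute and 3 chronic iNZM libraries, with none among the unexposed or WT samples. In acute skin and in chronic NZM skin they had the lowest class II levels of their groups, while in chronic iNZM skin they lay among the others. For the comparisons with unexposed skin, the counts of class II genes called are given with and without these 9 libraries. Values of single genes without them are given for some genes only. Values of the other gene lists are over all libraries. Whole skin was sequenced, so fewer class II-positive cells and less class II RNA per cell cannot be told apart in any of these values.

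Class II genes were abundant in unexposed skin of all 3 strains. Scaled to the length of the longest coding transcript, Cd74 had the highest mean level in each strain, at 9718 ± 3302 (SD, n = 5) normalized reads per kilobase in NZM, 13890 ± 2661 (n = 4) in iNZM and 9031 ± 2355 (n = 4) in WT. The α and β chains followed: in NZM, H2-Ab1 stood at 5940.3 ± 1934 per kilobase, H2-Aa at 5189 ± 1778 and H2-Eb1 at 5178 ± 1526, values that differ by less than their SDs. WT had the chains in a wider order, with H2-Ab1 at 8467 ± 1557 per kilobase, H2-Aa at 4416 ± 784 and H2-Eb1 at 3325 ± 760.3. The peptide exchange factors were lower, at 575 ± 181 (H2-DMa) and 662 ± 195 (H2-DMb1) per kilobase in NZM. Ciita had the lowest level per length of the 7, at 53.8 ± 15.2 in NZM, 73.9 ± 10.6 in iNZM and 65.8 ± 26.9 in WT.

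Unexposed iNZM had the highest mean of the 9 groups for all 7 genes. The 3 unexposed groups held the top places for every gene except H2-DMb1, of which acute NZM skin had more than unexposed WT skin (means of 503 and 492 normalized reads, with ranges of 178 to 715 and 383 to 675). Chronic iNZM skin was lowest for H2-Aa, H2-Ab1, H2-DMa, Cd74 and Ciita, and chronic WT skin for H2-Eb1 and H2-DMb1. Neighbours in this order were rarely separate. Of the 8 neighbouring pairs of groups, the means differed by less than the larger SD in 8 pairs for Ciita, 6 for H2-Ab1, H2-Eb1 and Cd74, and 5 for H2-Aa, H2-DMa and H2-DMb1. The ranges of neighbours overlapped throughout, except between unexposed WT and acute NZM for H2-Aa and Cd74.

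**Figure D1:**
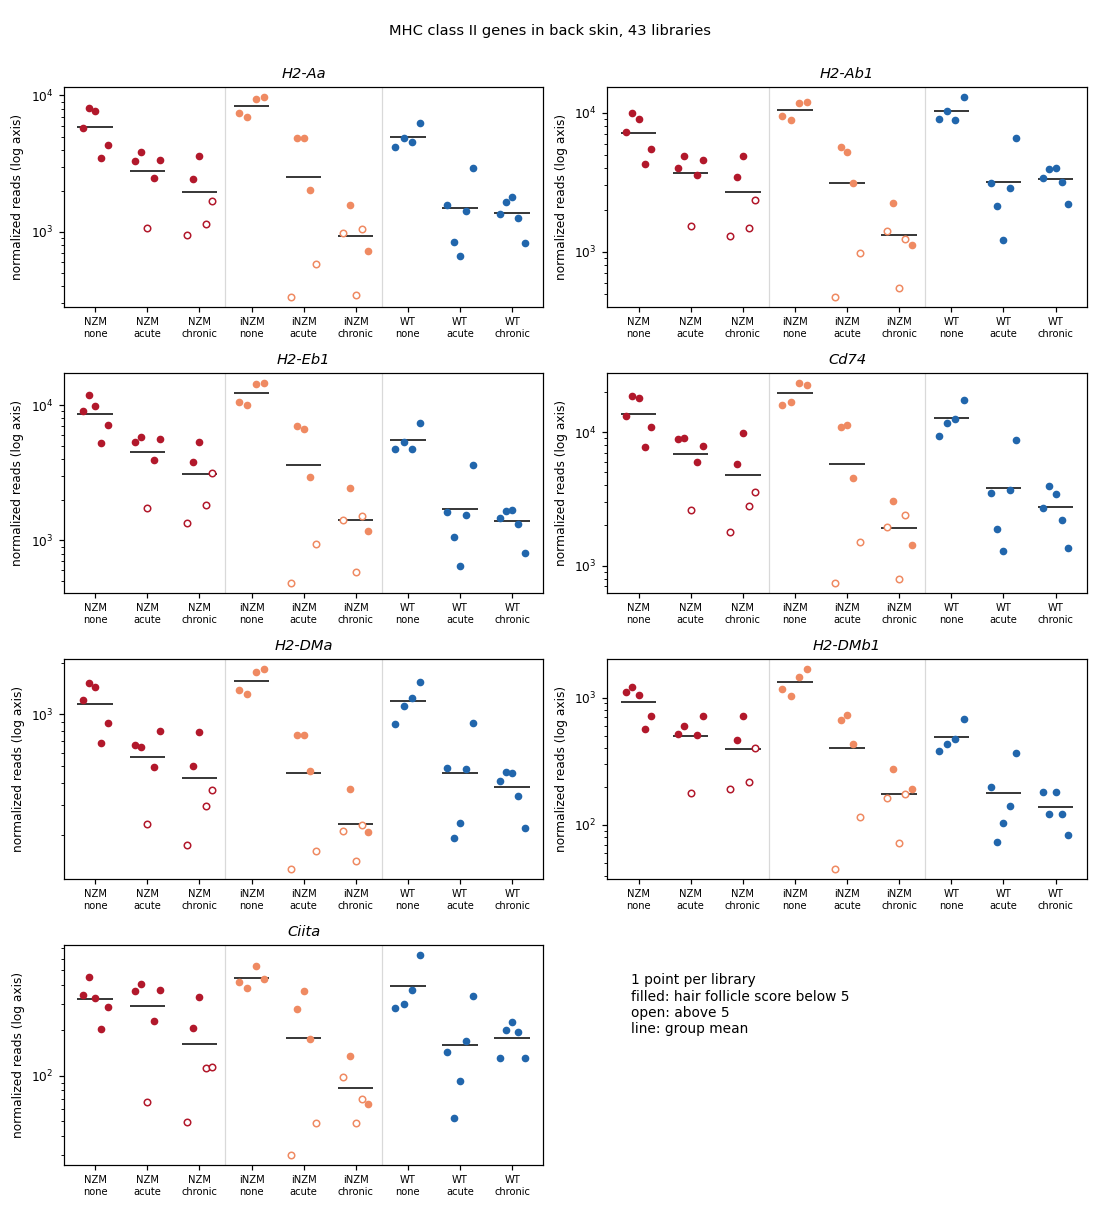
Normalized reads of the 7 class II genes (vertical log axes) in every library of the 9 groups of strain and UVB exposure. Points are libraries, open where the hair follicle score is above 5, and lines are group means; the unexposed groups are highest for every gene except H2-DMb1, and the open points are the lowest of the acute groups and of chronic NZM.

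Over all libraries, class II RNA fell after chronic UVB in all 3 strains and after acute UVB in iNZM and WT. The counts in acute and chronic NZM and in acute iNZM depend on a few libraries or on the fit, as given below. After acute UVB all 7 genes fell in iNZM and 6 of 7 fell in WT (all but Ciita), by limma with Benjamini-Hochberg adjustment over all genes at 0.05, while 0 of 7 passed in NZM. Over all genes, 12.4% fell and 12.8% rose in iNZM, 11.3% fell and 10.4% rose in WT, and 10.7% fell and 10.6% rose in NZM. In NZM 3 of the 7 had an unadjusted p below 0.05, as did 6354 of the 19170 genes. There edgeR and DESeq2 also called 0 of the 7, and 4261 and 4990 of all genes. The median log2 difference of the 7 genes was -2.33 in iNZM, -1.88 in WT and -1.01 in NZM, against medians over all genes of 0.00, 0.00 and 0.02. After chronic UVB 7 of 7 fell in iNZM, 6 of 7 in WT (all but Ciita) and 5 of 7 in NZM (all but H2-DMb1 and Ciita), with median log2 differences of -3.13, -1.85 and -1.55. The shares of all genes were 15.7% lower and 13.1% higher in iNZM, 16.8% lower and 18.4% higher in WT, and 9.78% lower and 9.2% higher in NZM. No class II gene rose in any of these 6 comparisons, in which both exposures of a strain share the same unexposed libraries. The groups did not overlap for 7 genes in both iNZM comparisons, for 5 genes in acute and 7 in chronic WT, and for 0 genes in either NZM comparison. Over all genes tested, every exposed library lay below every unexposed one for 10.4% and 10.9% in acute and chronic iNZM, 11.5% and 15% in WT, and 9.91% and 6.91% in NZM.

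Some of these counts depend on a few libraries or on the fit. When only the 2 groups compared were fitted, acute NZM gave 5 calls and acute iNZM 1, where 13.7% and 8% of all genes were lower. In chronic NZM the count of 5 became 0 without sample 17, 1 without sample 55 or 56 or without unexposed sample 32 or 33, 3 without unexposed sample 31, and 7 without sample 54, while the share of all genes that were lower ranged from 5.26% to 11.4% with 1 library left out. With the 9 libraries of high hair follicle score left out, the counts were 0 in acute and chronic NZM, 5 in acute and 7 in chronic iNZM, and 7 in both WT comparisons. The shares of all genes lower were then 14.1% and 2.67% in NZM, 10.9% and 10.7% in iNZM, and 15% and 21.2% in WT. Leaving out sample 6 or 49 took acute iNZM from 7 to 6, and leaving out sample 50, 15 or unexposed sample 45 took acute WT from 6 to 5, whereas it rose to 7 without sample 52. With 1 library left out, 9.17% to 15.0% of all genes were lower in acute iNZM and 9.04% to 11.5% in acute WT.

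**Figure D2:**
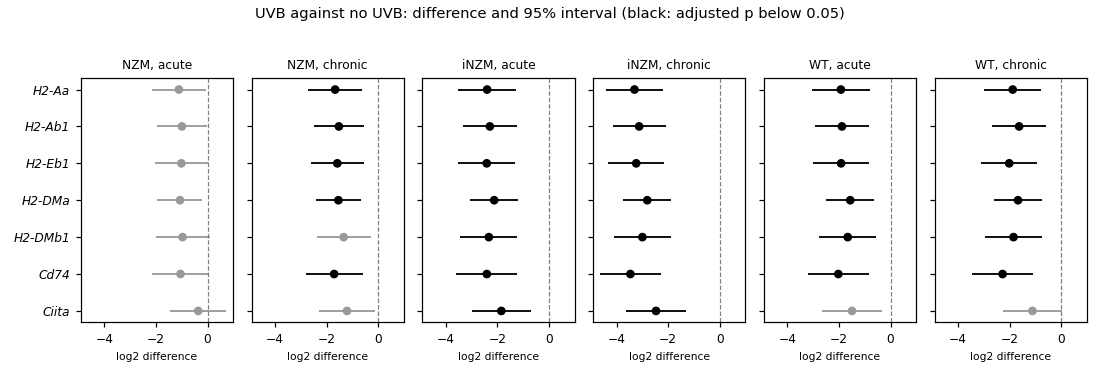
Log2 difference of each class II gene between UVB-exposed and unexposed skin (horizontal axis), with 95% intervals from the limma fit over 43 libraries, for acute and chronic UVB in each strain. Black marks an adjusted p below 0.05: none of 7 in acute NZM, 5 in chronic NZM, 7 in both iNZM panels and 6 in both WT panels, and all point estimates lie below 0.

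H2-Eb1 and H2-Ab1 encode the β chains of the I-E and I-A molecules. In unexposed NZM skin H2-Eb1 stood at 5216, 7146, 9105, 9917 and 11825 normalized reads. Acute NZM libraries had 1747, 3943, 5316, 5588 and 5785, and chronic ones 1346, 1817, 3179, 3836 and 5394. The 1747 and the 3 lowest chronic values came from libraries of high hair follicle score, and both exposed groups overlapped the unexposed one. In iNZM, H2-Eb1 was at 10085, 10537, 14427 and 14543 without UVB. It ran from 487 through 939, 2972 and 6619.8 to 6976 after acute UVB, and from 583 through 1183, 1418 and 1509 to 2425 after chronic UVB. Every exposed iNZM library lay below every unexposed one, and the acute group split into 2 low libraries with high hair follicle scores and 3 higher ones. WT skin had 4714, 4769, 5306 and 7411 without UVB, 649.7, 1052, 1554, 1630.3 and 3618 after acute UVB, and 802, 1331, 1473, 1657 and 1679 after chronic UVB. All exposed WT libraries again lay below the unexposed ones, the acute group being the more spread.

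The fall of H2-Eb1 after chronic UVB was 9.46-fold in iNZM (log2 difference -3.24, SE 0.541, adjusted p = 8.17e-05), 4.06-fold in WT (-2.02, adjusted p = 0.00386) and 3.01-fold in NZM (-1.59, adjusted p = 0.0273). After acute UVB it was 5.34-fold in iNZM (adjusted p = 0.0011) and 3.78-fold in WT (adjusted p = 0.0084), and the NZM difference of -1.01 did not pass (adjusted p = 0.16). Without the libraries of high hair follicle score the chronic NZM difference did not pass either.

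H2-Ab1 went from 7199.6 ± 2344 normalized reads (SD, n = 5) in unexposed NZM to 3718 ± 1324 after acute and 2695 ± 1487 after chronic UVB. Its means in WT were 10262 ± 1887 (n = 4), 3192 ± 2027 and 3334 ± 722, and the highest acute WT library, at 6564, stayed below the lowest unexposed one, at 8873. In iNZM H2-Ab1 stood at 8816, 9533, 11801 and 11976 without UVB, at 475, 977, 3139, 5204 and 5715 after acute UVB, and at 545, 1127, 1245, 1411 and 2238 after chronic UVB. The iNZM groups did not overlap with the unexposed one. Its log2 differences from unexposed skin were -2.30 and -3.13 in iNZM, -1.88 and -1.64 in WT, and -0.99 and -1.53 in NZM for acute and chronic UVB. The last passed with an adjusted p of 0.0249 and the acute NZM value did not (adjusted p = 0.143). The chronic NZM value did not pass without the libraries of high hair follicle score.

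H2-Aa encodes the α chain that pairs with the product of H2-Ab1. It fell from 8356 ± 1419.8 normalized reads in unexposed iNZM skin to 2537 ± 2230.1 in acute and 932 ± 447 in chronic skin, the latter a 9.91-fold decrease (adjusted p = 7.85e-05). In WT it fell from 4982 ± 885 to 1484 ± 887 and 1380.0 ± 378. In NZM the means were 5854 ± 2006, 2814 ± 1089 and 1965 ± 1086, of which the chronic fall passed (log2 difference -1.67, adjusted p = 0.0229) and the acute difference did not (-1.11, adjusted p = 0.126). This chronic fall no longer passed without the libraries of high hair follicle score. The lowest acute NZM library had 1066 normalized reads and a high hair follicle score; the other 4 had 2498 to 3837, against 3452 to 8046 without UVB.

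Cd74, the invariant chain, had the largest fall of the 7 genes in 4 of these 6 comparisons by log2 difference: chronic UVB in each strain and acute UVB in WT. Unexposed NZM libraries had 7671, 10941, 13288, 18009 and 18600.2 normalized reads of Cd74, acute ones 2612, 6015, 7805, 8926 and 8963, and chronic ones 1771, 2784, 3565, 5755 and 9787. The NZM groups overlapped, and 4 of the 10 exposed libraries (2612, 1771, 2784 and 3565) had high hair follicle scores. The iNZM libraries had 15911, 16812, 22431 and 23184 without UVB, 744, 1506, 4530.1, 10905 and 11346 after acute UVB, and 798, 1425, 1937, 2391 and 3061 after chronic UVB. Acute iNZM skin spanned from 744 to 11346, whereas all 5 chronic libraries were at 3061 or below. In WT, Cd74 had 9383, 11754, 12498 and 17299 without UVB, 1279.5, 1866, 3481, 3671 and 8669 after acute UVB, and 1365, 2198, 2701, 3436 and 3957 after chronic UVB. Neither exposed WT group reached the lowest unexposed value.

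Cd74 fell 11.1-fold in chronic iNZM (log2 difference -3.47, SE 0.582, adjusted p = 8.47e-05), 4.85-fold in chronic WT (adjusted p = 0.00261) and 3.28-fold in chronic NZM (adjusted p = 0.0271). After acute UVB it fell 5.32-fold in iNZM (adjusted p = 0.00225) and 4.07-fold in WT (adjusted p = 0.00954). The acute NZM difference was -1.05 (95% interval -2.16 to 0.06, adjusted p = 0.178). With the hair follicle score added as a covariate the chronic differences were -2.22 in iNZM (adjusted p = 0.00108), -2.37 in WT and -0.51 in NZM (adjusted p = 0.456). Without the 9 libraries of high score they were -3.21 in iNZM (adjusted p = 9.26e-05), -2.28 in WT and -0.79 in NZM (adjusted p = 0.378), and the acute iNZM difference was -1.23 (adjusted p = 0.0503).

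**Figure D3:**
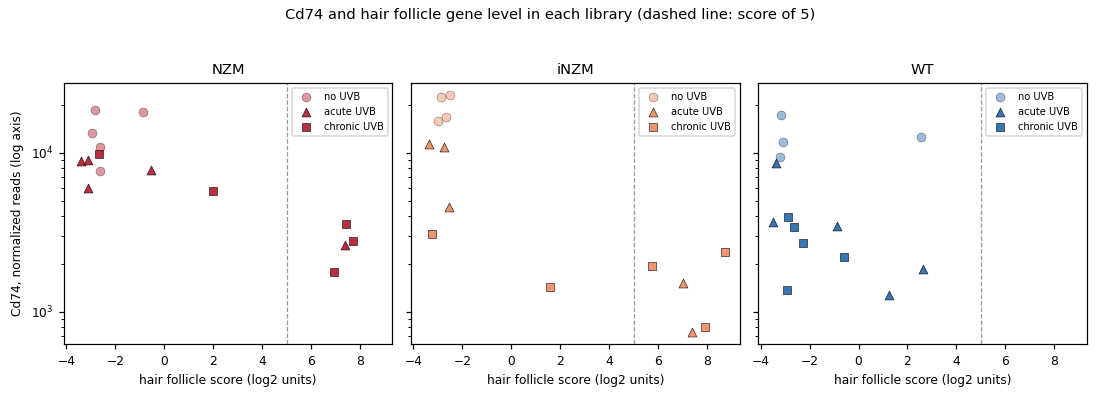
Cd74 in normalized reads (vertical log axis) against the hair follicle score in log2 units (horizontal axis) in each library, by strain and exposure; the dashed line marks a score of 5. The 9 libraries to the right of it are all exposed NZM or iNZM skin and have 744 to 3565 normalized reads of Cd74, and exposed WT libraries reach similar Cd74 levels at scores below the line.

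H2-DMa and H2-DMb1 encode the dimer that loads peptides. H2-DMa fell from 1569.8 ± 263 normalized reads (SD, n = 4) in unexposed iNZM to 456 ± 308 after acute and 231 ± 83.3 after chronic UVB, decreases of 4.37-fold and 7.03-fold (adjusted p = 0.000711 and 6.16e-05). It fell in WT from 875 to 1535 without UVB to 191 to 898 and 221 to 462, and in NZM it went from 1152 ± 363 to 569 ± 218 and 426 ± 235, of which the chronic fall passed (adjusted p = 0.0126) and the acute difference did not (adjusted p = 0.0722). The chronic NZM fall of H2-DMa did not pass without the libraries of high hair follicle score. Brd2, the overlapping gene on the other strand, had 2837 to 7435 normalized reads over the 43 libraries. H2-DMb1 had 1036, 1160.3, 1447 and 1668 normalized reads in unexposed iNZM. Its acute iNZM libraries had 45.3, 116, 435, 670.3 and 734, and the chronic ones 72.8, 164, 174, 193 and 276. All exposed iNZM libraries were lower than all unexposed ones, and the 2 lowest acute libraries were those of high hair follicle score. In WT it fell from 383 to 675 without UVB to 73.4 to 367 after acute UVB (adjusted p = 0.0253) and 83.5 to 182 after chronic UVB (adjusted p = 0.00825). The NZM ranges were 566 to 1209, 178 to 715 and 191 to 711, and neither difference passed (adjusted p = 0.189 and 0.0628).

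Ciita, the regulator, had the smallest log2 difference of the 7 genes in each of the 6 comparisons. It fell in iNZM, from 384, 421, 438 and 534 normalized reads without UVB to 29.9, 48.5, 176, 277 and 366 after acute UVB and 48.9, 65.3, 70.5, 97.6 and 135 after chronic UVB, 3.61-fold and 5.55-fold decreases (adjusted p = 0.0145 and 0.00202). The groups did not overlap, and the acute range was again set at its low end by the 2 libraries of high hair follicle score, without which the acute iNZM difference was -0.75 (adjusted p = 0.205). Ciita in WT was at 279.7, 302, 369.9 and 631 without UVB, 52.3, 92.3, 145, 170.0 and 336 after acute UVB, and 131, 131, 196, 200.4 and 227 after chronic UVB. Chronic WT libraries lay below the unexposed ones, but neither difference passed (-1.50, adjusted p = 0.0536, and -1.12, adjusted p = 0.122). In NZM, Ciita had 205, 287, 326, 343 and 456 without UVB, 67.1, 230.1, 368, 369 and 407 after acute UVB, and 49.2, 113, 114, 207 and 332 after chronic UVB. The log2 differences in NZM were -0.36 (adjusted p = 0.68) and -1.21 (adjusted p = 0.104), and without sample 5, the acute library of high hair follicle score at 67.1, the acute value was 0.10. Dexi, which shares exon sequence with Ciita on the other strand, had 448 to 1367 normalized reads.

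The ratio of Ciita to Cd74 within each library describes this difference. The pair was picked because these genes had the smallest and mostly the largest falls in the same libraries, so the ratio is given with no p-value. The mean ratio of normalized reads was 0.024 in unexposed, 0.040 in acute and 0.034 in chronic NZM, 0.023, 0.034 and 0.046 in iNZM, and 0.030, 0.045 and 0.070 in WT. Chronic libraries had higher ratios than all unexposed ones of their strain, by 0.49 on the log2 scale in NZM, 0.98 in iNZM and 1.16 in WT, while acute libraries differed by 0.69, 0.55 and 0.52. Without the 9 libraries of high hair follicle score the chronic values were 0.54, 0.98 and 1.16.

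Chronic and acute exposures were compared directly. The log2 differences of the 7 genes ranged from -0.85 to -0.37 in NZM, from -1.06 to -0.62 in iNZM and from -0.25 to 0.38 in WT. limma called 0 of 7 in each strain, where 7.55% (NZM), 8.26% (iNZM) and 37.3% (WT) of all genes were called in either direction. An unadjusted p below 0.05 was reached by 0 of 7 in each strain, and by 4378, 4424 and 8768 of the 19170 genes. Of all genes, edgeR called 1427, 1923 and 7098 and DESeq2 1907, 2520 and 7772 in the same order. Of the 7, edgeR called 0 in each strain, and DESeq2 0 in NZM and WT and 4 in iNZM. The iNZM count was also 4 without acute sample 6, and 7 without the 9 libraries of high hair follicle score. Over all genes DESeq2 called 13.1% there, limma called 12.1% without sample 6 and 22.9% without the 9 libraries. With the hair follicle score added as a covariate all 7 differences in NZM changed sign, to between 0.06 (Ciita) and 0.48 (H2-DMb1). For Cd74 in iNZM the difference was -1.06 (adjusted p = 0.243) over all libraries and -1.98 (adjusted p = 0.00892) without those 9.

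Whether the UVB response itself differed between strains was tested as an interaction. limma called 0 of 7 genes in each of the 4 interactions, as did edgeR and DESeq2. The number with an unadjusted p below 0.05 was 5 for the chronic response of iNZM against that of NZM and 0 for the other 3 interactions. For Cd74, which was lower after UVB in each strain, the acute log2 difference in NZM was smaller in size than that in WT, by 0.98 (95% interval -0.64 to 2.60, adjusted p = 0.714), and so was the chronic one, by 0.57 (-1.05 to 2.19, adjusted p = 0.711). The acute log2 difference in iNZM was more negative than that in NZM, by -1.36 (-2.98 to 0.26, adjusted p = 0.831), and the chronic one by -1.76 (-3.38 to -0.14, adjusted p = 0.384). Over all genes limma called 0.115%, 7.58%, 0.00522% and 0% in these interactions. In the same order, 1947, 4612, 1215 and 2134 of the 19170 genes had an unadjusted p below 0.05. edgeR called 9, 1674, 0 and 0 of them and DESeq2 206, 2530, 5 and 374. The intervals are wide enough to hold both no difference, or in the last case a small one, and differences above 2 log2 units, so the steeper fall in iNZM is not shown to differ from that in NZM. With the hair follicle score added as a covariate, 5 of 7 passed for the chronic response of NZM against that of WT, Cd74 by 1.86 (adjusted p = 0.023), where 21.4% of all genes passed.

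NZM and WT were then compared at equal exposure. With acute UVB, H2-DMb1 was 3.01-fold higher in NZM (log2 difference 1.59, adjusted p = 0.0353) and H2-Eb1 2.85-fold higher (1.51, 95% interval 0.48 to 2.55, adjusted p = 0.0431). These were 2 of the 7 genes, where 7.96% of all genes were higher and 5.08% lower in NZM. The acute libraries overlapped for both genes: H2-DMb1 had 178, 507, 514, 599.7 and 715 normalized reads in NZM and 73.4, 104, 141, 199.9 and 367 in WT. For the remaining 5 genes the differences ran from 0.33 (H2-Ab1, adjusted p = 0.716) to 1.04 (Cd74, adjusted p = 0.226). Leaving out acute NZM sample 1, 3, 46 or 47, or acute WT sample 15, 50 or 51, gave 0 calls, and leaving out WT sample 13 gave 1. Of all genes, 5.44% to 8.28% were higher in NZM with 1 library left out. edgeR called 1 and DESeq2 2 of the 7, where they called 2472 and 3072 of the 19170 genes. With the libraries of high hair follicle score left out 5 genes passed, where 9.58% of all genes were higher, and the Cd74 difference was then 1.36 (adjusted p = 0.0168).

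In unexposed skin 0 of 7 class II genes differed between NZM and WT, by limma, edgeR and DESeq2, with log2 differences from -0.56 (H2-Ab1) to 0.90 (H2-DMb1). By limma 7.47% of all genes were higher and 7.49% lower in NZM, and edgeR and DESeq2 called 2986 and 3624 of the 19170 genes. An unadjusted p below 0.05 was reached by 0 of the 7 and by 5330 of all genes. With chronic UVB the differences ran from -0.45 (H2-Ab1) to 1.41 (H2-DMb1), and 0 were called by limma and 1 by each of edgeR and DESeq2. Of the 7, 2 had an unadjusted p below 0.05, as did 3989 of the 19170 genes. By limma 4.29% of all genes were higher and 3.59% lower, and edgeR and DESeq2 called 1572 and 2060 of the 19170 genes. The chronic H2-DMb1 libraries did not overlap, as was so in this direction for 3.38% of all genes, at 191, 216, 399, 466 and 711 normalized reads in NZM against 83.5, 121, 122, 179.9 and 182 in WT, but the difference did not pass (adjusted p = 0.0895). With the hair follicle score added as a covariate 5 genes passed, and 2 without the 9 libraries, where 7.34% and 3.27% of all genes were higher.

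iNZM and NZM were compared in the same way. In unexposed skin the 7 differences ran from 0.49 to 0.60 in favour of iNZM. With acute UVB they ran from -0.998 to -0.56 and with chronic UVB from -1.19 to -0.77. limma, edgeR and DESeq2 called 0 of 7 genes at each exposure. Of the 7, 0, 0 and 5 had an unadjusted p below 0.05, as did 1082, 735 and 1926 of the 19170 genes. Few genes of any kind were called by limma between these strains: 0.0313% without UVB, 0.224% with acute and 0.428% with chronic UVB. In the same order edgeR called 5, 32 and 48 genes and DESeq2 81, 64 and 223. Without the libraries of high hair follicle score the acute differences were positive for 6 of 7 genes, between 0.01 and 0.18, with Cd74 at 0.07. With the score added as a covariate they stayed negative for all 7, from -0.68 (Ciita) to -0.32 (H2-DMa), with Cd74 at -0.49.

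**Figure D4:**
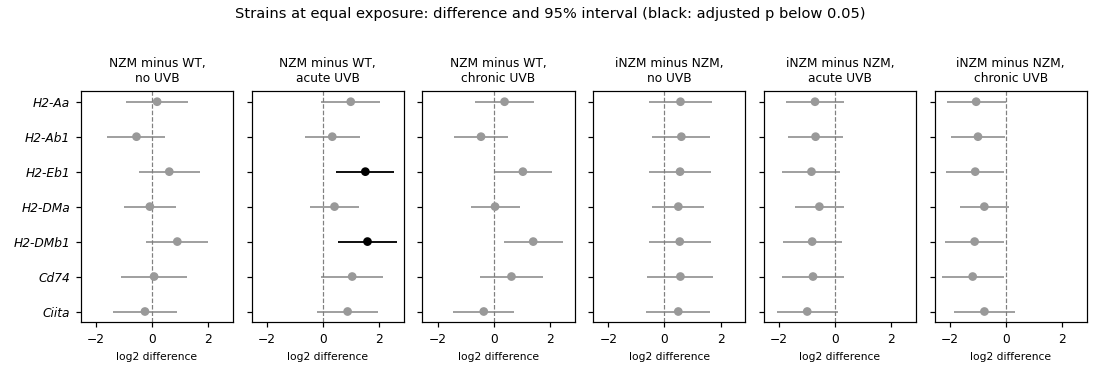
Log2 difference of each class II gene between strains at equal exposure (horizontal axis), with 95% intervals from the limma fit over 43 libraries. Black marks an adjusted p below 0.05, reached by H2-Eb1 and H2-DMb1 in the acute NZM against WT panel (1.51 and 1.59) and in no other panel.

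Ratios between class II genes within a library separated NZM from WT without overlap. They were chosen after the values were seen, so their p-values are no independent evidence. These come from exact two-sided permutation tests and were adjusted over 33 tests of ratios and sums, which include those of Ciita to Cd74. In normalized reads, H2-Eb1 to H2-Ab1 was 1.21 ± 0.075 (SD, n = 5) in unexposed, 1.19 ± 0.082 in acute and 1.16 ± 0.12 in chronic NZM skin, and 0.538 ± 0.024 (n = 4), 0.526 ± 0.023 and 0.412 ± 0.028 in WT. No NZM library overlapped a WT library at any exposure, and the log2 differences were 1.17 (exact p = 0.0159, adjusted 0.0327), 1.18 and 1.49 (both exact p = 0.00794, adjusted 0.0262). These exact p-values are the smallest possible with 5 against 4 and 5 against 5 libraries, and any ratio without overlap reaches them. H2-Aa to H2-Ab1 was also higher in NZM, by 0.74, 0.66 and 0.84 on the log2 scale with the same p-values and no overlap. H2-DMb2 to H2-DMb1 went the other way, at 0.080, 0.077 and 0.114 in NZM and 0.749, 0.956 and 1.38 in WT, log2 differences of -3.26, -3.61 and -3.65. Class II alleles differ between mouse strains and reads were aligned to 1 reference genome, so strain differences in RNA level and in alignment cannot be told apart.

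The paralogs H2-DMb1 and H2-DMb2 bear on the acute call for H2-DMb1. H2-DMb2 averaged 70.6 normalized reads in unexposed NZM and 366 in unexposed WT, and with acute UVB it was lower in NZM by a log2 difference of -1.97. The sum of the 2 genes differed between NZM and WT by 0.20 without UVB (exact p = 0.508), 0.75 with acute UVB (exact p = 0.167, adjusted 0.239) and 0.33 with chronic UVB (exact p = 0.397), none of which passed. Without acute NZM sample 5, of high hair follicle score, the acute value was 1.10 (exact p = 0.0476, unadjusted). In iNZM the ratios stood near those of NZM: H2-Eb1 to H2-Ab1 was 1.17 without UVB and 1.08 with either exposure, and H2-DMb2 to H2-DMb1 was 0.087 with acute and 0.120 with chronic UVB. Of the ratio tests between iNZM and NZM, 1 passed, that of H2-Ea-ps to H2-Eb1 with chronic UVB (log2 difference -0.17, exact p = 0.00794, adjusted 0.0262). The same ratio differed by 0.20 without UVB (exact p = 0.0317, adjusted 0.0551) and by -0.03 with acute UVB, so its direction was not the same at each exposure. Without the libraries of high hair follicle score the chronic value was -0.23, with 2 libraries in each group.

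**Figure D5:**
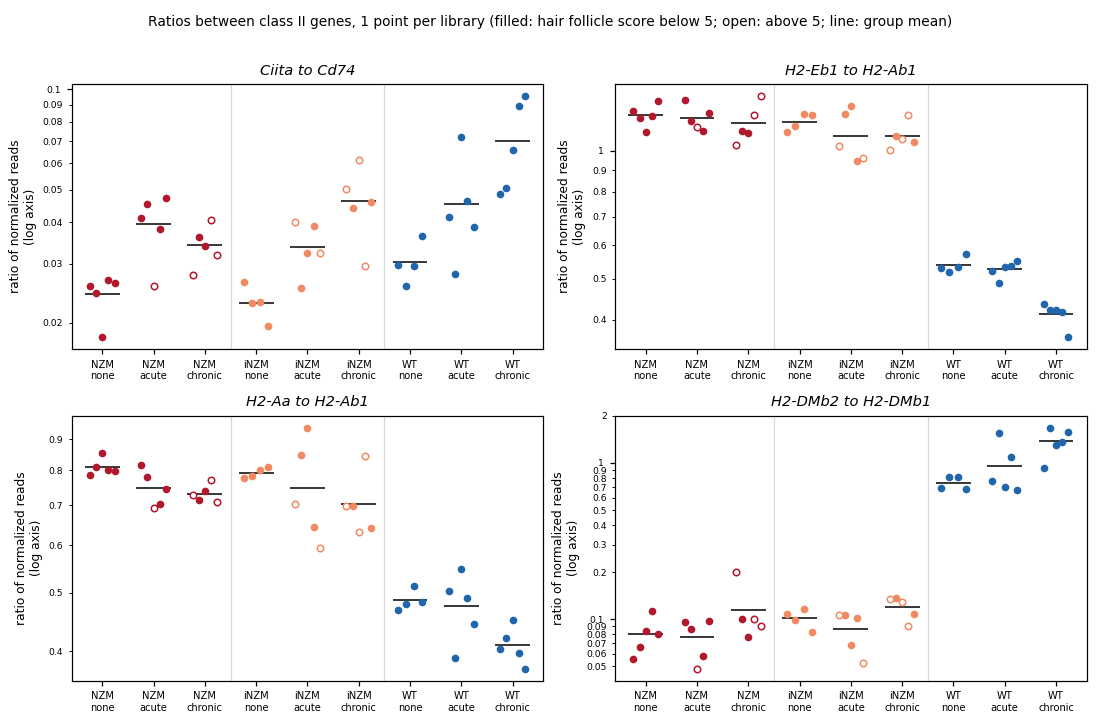
Ratios of normalized reads between class II genes (vertical log axes) in each library of the 9 groups; open points have a hair follicle score above 5 and lines are group means. H2-Eb1 to H2-Ab1 and H2-Aa to H2-Ab1 are higher, and H2-DMb2 to H2-DMb1 lower, in every NZM and iNZM library than in every WT library, and Ciita to Cd74 is higher in chronic than in unexposed skin of each strain.

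Across the 43 libraries the 7 genes moved closely together. As a description, Pearson's r between log2 levels ranged over the 21 pairs from 0.831 (H2-DMb1 with H2-Ab1) to 0.993 (Cd74 with H2-Aa), and after group means were subtracted from 0.917 (Ciita with H2-Ab1) to 0.992 (H2-Eb1 with H2-Ab1). The libraries share depth scaling and hair follicle content in these correlations. Of genes outside the 7, the levels most like their mean were those of the class II gene H2-Ea-ps (r = 0.980), Prkcb (0.947), Spn (0.938), Grap2 (0.916), Nceh1 (0.914), Cd207 (0.912), Pam (0.908), Sectm1a (0.905), Havcr2 (0.902) and Plekha2 (0.901). H2-Ea-ps is annotated as a polymorphic pseudogene and averaged 3170, 5199 and 3955 normalized reads in unexposed NZM, iNZM and WT. Cd207 encodes langerin, the defining lectin of Langerhans cells, and Prkcb a protein kinase C isoform abundant in leukocytes. Within groups the closest were H2-Ea-ps (0.981), Lcp1 (0.936), Itgb7 (0.930), Cd52 (0.921), Pip4k2a (0.920), Slco2b1 (0.920), Spn (0.917), Arrb1 (0.916), Ctsh (0.915) and Ctss (0.914). Lcp1 and Cd52 are made by leukocytes in general, and Ctss encodes cathepsin S, which cleaves the invariant chain.

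The table held 5 other class II genes, of which H2-Eb2 was near 0 and not tested. Of the other 4, 3 fell in acute iNZM (H2-Ea-ps, H2-DMb2 and H2-Ob, the β chain of H2-DO, an inhibitor of H2-DM) and 2 in acute WT (H2-Ea-ps and H2-Oa, the α chain of H2-DO). In acute NZM their differences were -1.12 to -0.75, with adjusted p from 0.144 to 0.428. After chronic UVB 4 fell in iNZM and 1, H2-Ea-ps, in each of NZM and WT. Of 8 antigen processing genes, 1 rose and 1 fell in acute NZM, 3 fell in acute iNZM, 1 fell in acute WT, and 2 rose (Ctsd by 0.99 and Ifi30 by 0.67) and 2 fell in chronic WT. After chronic iNZM exposure 2 fell, Ctss by a log2 difference of -3.10 and March1 by -2.72. Over all genes, 9.78% to 16.8% fell and 9.2% to 18.4% rose in the comparisons with unexposed skin. A count of 1 of 8 is near such shares. March1 encodes a ubiquitin ligase that removes class II from the surface. March8, a related ligase, fell in acute skin of each strain (-0.40 in NZM, -0.65 in iNZM and -0.70 in WT) and in chronic WT (-0.47). Lgmn, an endosomal protease, rose by 1.80 in acute NZM (adjusted p = 0.0013).

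The RFX, NF-Y and CREB genes, whose products hold Ciita at the promoters, stayed within log2 differences of -0.39 to 0.55 from unexposed skin. Of 12 transcription factors in all, 2 fell in acute NZM, 2 rose and 2 fell in acute iNZM, 1 rose and 1 fell in acute WT, and 2, 4 and 1 fell in chronic NZM, iNZM and WT. As 9.78% to 16.8% of all genes fell and 9.2% to 18.4% rose, counts of 1 or 2 of 12 are near those of any genes. Rfx5, Rfxank, Nfyc and Creb1 passed in none of the 6 comparisons. Rfxap fell slightly in NZM (-0.29 and -0.30), and Nfyb, an NF-Y subunit, rose in acute iNZM (0.35) and acute WT (0.55). Irf4 fell by a log2 difference of -2.96 in chronic WT (adjusted p = 2.8e-05) and -1.99 in chronic iNZM, and Spi1, a master factor of myeloid cells, by -2.49 in chronic iNZM (adjusted p = 0.0028). Irf1, which acts on a Ciita promoter downstream of interferon gamma, fell in iNZM (-1.01 and -1.56).

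Of 9 genes of the interferon gamma axis, 3 fell in acute and 3 in chronic NZM, 6 and 8 in iNZM, and 1 and 4 in WT, where 1 also rose each time. The shares of all genes in these comparisons were 9.78% to 16.8% lower and 9.2% to 18.4% higher. The receptor chain Ifngr1 fell in all 6 comparisons, by log2 differences of -0.95, -1.21 and -0.86 after acute and -1.40, -1.68 and -1.35 after chronic UVB in NZM, iNZM and WT. Cxcl9, a chemokine induced by interferon gamma, fell in NZM (-2.08 and -1.99) and iNZM (-3.14 and -2.38) and stood at -0.28 and 0.38 in WT. For the response of NZM against that of WT, the interaction called 0 of the 9 genes after acute and 2 after chronic UVB. Of all genes 0.115% and 7.58% were called there, and the Cxcl9 value is not reported here. All libraries were used, and those of high hair follicle score were all NZM or iNZM. Socs1, a feedback inhibitor of this signalling, rose in WT (0.81 and 0.74) and fell in chronic iNZM (-1.19). Among 7 costimulatory genes, which supply the second signal to T cells, Cd80 rose in acute NZM (2.12), acute WT (2.19) and chronic NZM (1.49). Cd83 fell in acute iNZM (-1.39), acute WT (-1.32) and chronic WT (-1.34), the 1 gene to do so in each, and 4 of 7 fell in chronic iNZM, led by Pdcd1lg2 (-2.89) and Cd86 (-2.75). Counts of 1 of 7 or 1 of 9 are near the shares of all genes.

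Markers of the cells that carry class II were compared beside these results. Of 12 dendritic and Langerhans cell genes, 2 fell in acute and 3 in chronic NZM, 6 and 10 in iNZM, and 2 and 6 in WT, where Ccr7 rose after acute UVB (2.07). Of all genes, 10.7% and 9.78% fell in NZM, 12.4% and 15.7% in iNZM, and 11.3% and 16.8% in WT. The median log2 difference of the 12 was 0.18 in acute and -0.76 in chronic NZM, -2.08 and -2.93 in iNZM, and -0.81 and -0.90 in WT. Cd207 fell in all 6 comparisons, from 1292 ± 207 normalized reads (SD, n = 5) to 359 ± 174 and 252 ± 148 in NZM, from 1442 ± 164 to 274 ± 197 and 187 ± 89.3 in iNZM, and from 947 ± 186 to 161 ± 71.1 and 214 ± 99.0 in WT. The 12 genes summed to 2322 to 3288 in unexposed, 706 to 4946 in acute and 904 to 3461 in chronic NZM libraries, to 3888 to 5915, 290 to 4332 and 361 to 1323 in iNZM, and to 2703 to 8076, 763 to 6605 and 675 to 2057 in WT. The part of these 12 genes in the class II differences was not tested. Their values are over all libraries, and those of high hair follicle score were all NZM or iNZM.

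Macrophage genes did not follow one direction. Of 10, 2 rose in acute NZM (Mrc1 by 2.41 and Lyve1 by 2.70), whereas 9 fell in chronic iNZM, 3 in chronic WT and 1 in acute iNZM. Among all genes 10.6% rose in acute NZM, and 15.7%, 16.8% and 12.4% fell in the other 3 comparisons. The median log2 difference of the 10 was 1.63 in acute NZM, -0.34 in acute WT and 1.01 in chronic NZM. Their summed level was 3987 to 6181 in unexposed, 4746 to 31944 in acute and 3748 to 22716 in chronic NZM, 8767 to 23212, 1660 to 40467 and 1190 to 5306 in iNZM, and 8715 to 63115, 5575 to 52036 and 3538 to 16822 in WT. In acute NZM skin the median of this sum was 19246, against 5212 without UVB. The part of these 10 genes in the class II differences was likewise not tested. Their values are also over all libraries, including those of high hair follicle score.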

How the data were processed

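Poly-A RNA of 43 back-skin samples was sequenced as paired reads of 151 bases. The authors deposited 1 table of normalized signal (read counts divided by a size factor per library), made with STAR, HTSeq and DESeq2 on mm10 per the submitters' processing notes, with versions not stated. The steps between low values gave back whole reads (100% of values, to within 0.01), and the implied size factors were 0.674 to 1.75.

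Genes with at least 10 normalized reads in at least 4 libraries were kept. log2(value + 1) was fitted with limma 3.58.1 (trend, R 4.3.3), with 1 mean for each of 9 groups over 43 libraries, and p-values were adjusted by Benjamini-Hochberg over all genes tested within each of 19 comparisons (15 between groups, 4 interactions). Fold changes are on that log2 scale. Count tests on these reads (edgeR 4.0.16, DESeq2 1.42.0), other pseudocounts and filters, TMM scaling, covariates and left-out libraries were alternatives. The limma fit was tested on simulated data. Ratios and sums were tested with exact permutation (SciPy 1.17.1). The class II genes and gene lists were chosen with earlier results of these data known. From each list counts are given, with up to 4 genes of smallest adjusted p per comparison, and from the correlations the 10 highest, leaving out predicted genes. Langerhans, macrophage and other marker lists were among them. Values of some list genes are not reported here.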

Additional observations from a re-analysis of the deposited data

How the results depend on the processing

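Of 913 recomputed gene values of 83 results, 847 kept their direction and side of the threshold, 33 newly passed, 22 no longer passed and 11 changed sign; of 828 values with 1 library left out these numbers were 779, 4, 43 and 2. The count of class II genes called moved by over 1.5 times, or to or from 0, in the following cases, and by less or not at all in the others. With only the compared groups fitted, acute NZM gave 5, acute iNZM 1, and NZM against WT 1 without UVB and 1 with chronic UVB. Of 19170 genes, these fits called 5264, 3102, 3845 and 1117 in either direction. With the hair follicle score added as a covariate, acute NZM gave 1, chronic NZM 0, NZM against WT 5 with acute and 5 with chronic UVB, and the chronic response of NZM against that of WT 5. In the same order, 5145, 2827, 3675, 2549 and 4110 of the 19170 genes were called. Without the 9 libraries of high score, chronic NZM gave 0, chronic against acute iNZM 7, and NZM against WT 1, 5 and 2 without, with acute and with chronic UVB. Here 1006, 4390, 4342, 3130 and 1108 of the 19170 genes were called. A term for samples numbered from 46 upward gave 1 for NZM against WT with acute UVB, where 2377 of the 19170 genes were called. edgeR gave 1 for that comparison and 1 with chronic UVB, and DESeq2 gave 4 for chronic against acute iNZM and 1 for NZM against WT with chronic UVB. Of the 19170 genes, edgeR called 2472 and 1572 there, and DESeq2 2520 and 2060. Leaving out 1 library at a time gave 0 to 7 in chronic NZM, 0 to 4 in chronic against acute iNZM and 0 to 2 in NZM against WT with acute UVB. The shares of all genes then ranged from 5.26% to 11.4% lower, 1.82% to 7.22% lower and 5.44% to 8.28% higher. The cause was not tested.

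With the hair follicle score added as a covariate the log2 difference changed sign to 0.0504 for Ciita in chronic NZM, 0.21 for Cd74 in chronic against acute NZM (as for the other 6 genes) and 0.65 for H2-Ab1 in NZM against WT with chronic UVB. Without the high-score libraries it changed sign to 0.33 for that H2-Ab1 value and 0.10 for Ciita in acute NZM. In iNZM against NZM with acute UVB it then became 0.18 for H2-Aa, 0.10 for H2-Ab1, 0.016 for H2-Eb1, 0.0086 for H2-DMa, 0.0481 for H2-DMb1, 0.0748 for Cd74 and 0.0767 for the ratio of H2-Aa to H2-Ab1. With 1 library left out, Ciita in acute NZM ranged from -0.54 to 0.10 and Cd74 in chronic against acute WT from -0.57 to 0.12. That ratio ranged from -0.11 to 0.0555, and H2-Ea-ps to H2-Eb1 in iNZM against NZM with acute UVB from -0.0750 to 0.0049. No paired analysis was possible because the groups share no replicate numbers. The lowest value of any of the 7 genes in a library was 29.9 normalized reads (Ciita), and 4 or 5 libraries per group limit the precision.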

Other observations

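MHC class I genes, whose products present peptides from inside the cell to CD8+ T cells, were a second antigen presentation pathway in the same skin. Of 9 genes (the chains H2-K1, H2-D1 and B2m, the transporters and loaders Tap1, Tap2 and Tapbp, the immunoproteasome subunits Psmb8 and Psmb9, and Nlrc5, the class I transactivator), 9 fell in acute and 9 in chronic iNZM, and 4 in acute and 7 in chronic NZM. Over all genes 12.4% and 15.7% fell in iNZM and 10.7% and 9.78% in NZM after acute and chronic UVB. In WT the median log2 differences of the 9 were -0.32 and -0.12, against -1.42 and -1.49 in iNZM and -0.78 and -1.06 in NZM. These class I values are over all libraries, and the 9 libraries of high hair follicle score were all NZM or iNZM. Class I values without those libraries are not reported here. Tap1 fell by -0.89 and -1.06 in NZM and -1.40 and -1.49 in iNZM after acute and chronic UVB, and stood at -0.25 (adjusted p = 0.57) and 0.14 (adjusted p = 0.71) in WT. Psmb9 fell by -1.15 and -1.38 in NZM and -1.85 and -2.06 in iNZM, and stood at -0.35 and -0.02 in WT. Of the 7 class II genes, 6 fell in each WT comparison. By the interaction test, 1 of the 9 class I genes differed in its chronic response between NZM and WT. Of all genes, 7.58% were called in that interaction, and a count of 1 of 9 is near such a share. For the acute response of NZM against that of WT, 0 of 9 were called. The acute and chronic responses of iNZM against those of NZM also gave 0 of 9 each.

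Between 9.78% and 16.8% of all genes fell in the comparisons with unexposed skin. Of 6 T cell genes 3, 4 and 3 fell after acute and 3, 6 and 3 after chronic UVB in NZM, iNZM and WT. Among them Cd3g, which like Cd3e encodes a chain of the receptor complex, fell by log2 differences of -2.72, -3.29 and -3.02 after acute and -2.81, -3.07 and -3.18 after chronic UVB in NZM, iNZM and WT, and Cd3e by -2.53, -3.18 and -2.06 and by -2.65, -2.85 and -3.06.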
